A study of Homo sapiens with 6 samples.

Results

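The collagen genes were read across RNA-seq libraries of 2 pancreatic ductal adenocarcinoma (PDAC) cell lines, PANC-1 and a line named 90 in the labels. They were the protein-coding rows whose symbol has the form COL, a number, A and a number, without COL17A1, and they came to 43 of the 41768 named genes in the table. Each line had 1 library labelled NC and 2 labelled with small interfering RNA (siRNA) against ALDOA, the gene of the glycolytic enzyme aldolase A, written siAldoa for 90 and siALDOA for PANC-1. These are called NC, siALDOA 1 and siALDOA 2 of each line below. PANC-1 is an established human PDAC line. The sources used here do not give the meaning of 90 or NC, whether siALDOA 1 and 2 are different siRNAs, or whether libraries came from separate cultures. The p-values below therefore reflect the spread of these libraries alone, and that spread may be technical.

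Collagens are extracellular proteins built from 3 alpha chains wound into a triple helix, whose stability depends on regularly spaced glycines and on hydroxylated prolines. Fibrillar types such as I, III, V and XI form the tensile fibrils of connective tissue, type IV forms the sheet of the basement membrane, type VI forms beaded filaments, type VII forms the anchoring fibrils below epithelia, and the FACIT types, which have interrupted helices, bind to fibril surfaces. In PDAC much of the collagen of the dense stroma is made by fibroblasts and stellate cells, while carcinoma cells can contribute chains of their own. Many types need chains from 2 or 3 genes, so the levels of partner chains are given side by side.

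Values are FPKM, fragments per kilobase of gene and per mega (M) fragments, which allows levels of different genes to be compared per length. ALDOA checked the labels, falling from 726 FPKM in NC to 262 and 318 in the siALDOA libraries of 90, and from 906 to 501 and 462 in PANC-1. Depth recovered from the values was 17.8 to 21.8 M fragments per library, and whole fragments could be recovered for each collagen gene. PANC-1 siALDOA 1 stood apart at the low end, with 23356 genes above 0 against 19171 to 20371 in the other libraries, and with 41 of the 43 collagen genes above 0 against 30 to 35. Libraries also differed in a trend with GC content, described with the siALDOA results.

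Both lines carried epithelial keratin RNA, with KRT8 at 1074 to 1969 FPKM and KRT18 at 956 to 1578. Of 8 epithelial markers 5 were called lower and 1 higher in PANC-1 by the line test described below. Over all tested genes 18.4% were called lower and 20.4% higher. CDH1 (E-cadherin) was at 1.18 to 2.05 FPKM in PANC-1 against 38 to 44.5 in 90. The part of these markers in the line differences below was not tested. Of 10 fibroblast and stellate cell markers, 8 stayed under 1 FPKM in every library, and DCN, LUM, PDGFRA, FAP and POSTN reached at most 0.0970. The other 2 went in opposite directions: THY1 was at 5.14 to 7.04 FPKM in PANC-1 and listed at 0 in 90, and ACTA2 was at 1.05 to 1.43 in PANC-1 and 4.51 to 6.67 in 90. The summed fibroblast list was 4.67 to 6.96 FPKM in 90 and 6.87 to 8.50 in PANC-1. Of the endothelial markers, CDH5 was at 3 to 3.28 FPKM in 90 and at 0 in PANC-1, and the other 5 stayed under 1 FPKM. Of the leukocyte markers, CD68, which is also a general lysosomal gene, was at 31.3 to 51.2 FPKM in 90 and 124 to 162 in PANC-1, while PTPRC reached at most 0.0169.

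Few collagen genes were abundant. In any library, 17 of the 43 reached 1 FPKM, and 26 never did. The summed collagen level was 87.5 to 99.7 FPKM in the 90 libraries and 261 to 305 in those of PANC-1, and COL18A1 alone made up 21.2% to 25.1% of it in 90 and 68.95% to 75.45% in PANC-1. In bulk RNA, fewer cells with a transcript and less transcript per cell cannot be told apart.

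**Figure D1:**
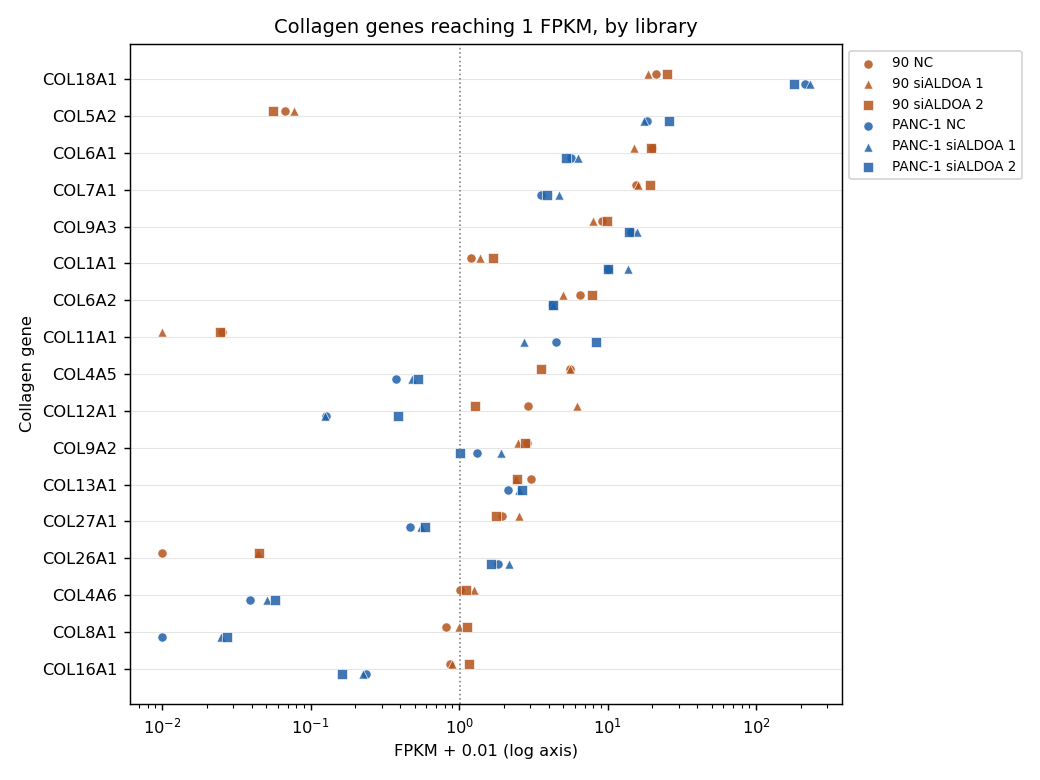
FPKM + 0.01 on a log axis for the 17 collagen genes that reached 1 FPKM in any library, with orange for 90, blue for PANC-1, and circles, triangles and squares for NC, siALDOA 1 and siALDOA 2. The colours are apart for COL18A1, COL5A2 and COL1A1, mixed for COL13A1, and the dotted line marks 1 FPKM.

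PANC-1 against 90 asks how the collagen transcripts of both lines differ. The test, limma on log2(FPKM + 1), took the 12592 genes whose average across libraries reached 1 FPKM, and a call needed an adjusted p (Benjamini-Hochberg) under 0.05. This scale understates the fold of low genes. Of the 43 collagen genes 13 were tested. Of these, 5 were called higher and 5 lower in PANC-1, where 38.8% of all tested genes were called, 20.4% higher and 18.4% lower. COL5A2, COL11A1, COL4A5, COL12A1 and COL27A1 entered the test only through the line where they were high and so had to differ. Of the 8 with a mean of at least 1 FPKM in both lines, 5 were called, against 32.8% of all such genes. The median log2 difference of the 13 was -0.49, and that of all tested genes was 0.13. The 6 libraries did not overlap between the lines for 12 of the 13, against 54.1% of all tested genes, a count that includes the 5 that had to differ.

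**Figure D2:**
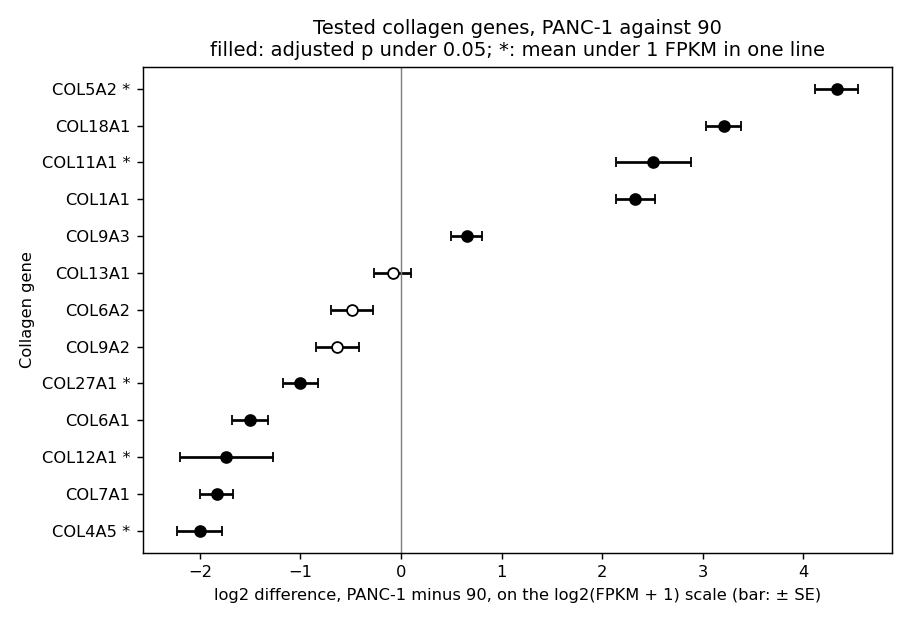
The log2 difference between PANC-1 and 90 on the log2(FPKM + 1) scale with its limma SE for the 13 tested collagen genes, filled where the adjusted p is under 0.05, and starred where the mean of a line is under 1 FPKM. The differences run from -2.0 for COL4A5 to 4.33 for COL5A2.

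COL18A1 was the most abundant collagen gene in every library and was 9.6-fold higher in PANC-1. It encodes the alpha chain of collagen XVIII, a heparan sulfate proteoglycan of basement membranes whose C-terminal part is endostatin. Its level, in the order NC, siALDOA 1 and siALDOA 2, was 21.2, 18.5 and 25.1 FPKM in 90 and 213, 229 and 179.7 FPKM in PANC-1. All PANC-1 libraries lay far above all 90 libraries, with means of 207 ± 25.3 against 21.6 ± 3.28 FPKM (SD, n = 3 each) and a log2 difference of 3.21 (SE 0.173, adjusted p = 2.91e-04). COL18A1 spans bases 45405137 to 45513720 of chromosome 21, plus strand, in GRCh38 as annotated by GENCODE v29. COL15A1, the other multiplexin, was all but absent, with 6 fragments over the 6 libraries.

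Of the 11 fibrillar genes 4 were tested, and 3 were called higher and 1 lower in PANC-1. Over all tested genes 38.8% were called. COL5A2, COL11A1 and COL27A1 entered the test only through the line where they were high and so had to differ. The summed level of the class was 34.2 to 45.8 FPKM in PANC-1 and 3.355 to 4.105 in 90. COL5A2, the alpha 2 chain of the fibril-nucleating type V, was at 0.0568, 0.0666 and 0.0455 FPKM in NC, siALDOA 1 and siALDOA 2 of 90 and at 18.2, 17.5 and 26 in those of PANC-1. It was close to silent in 90, where its values rest on 22 fragments over 3 libraries against 8631 in PANC-1, and the mean FPKM was 365-fold higher in PANC-1 (log2 line difference 4.33, SE 0.215, adjusted p = 2.41e-04). COL11A1, a minor fibril chain that serves as a marker of activated stroma in carcinomas, was at 0.0154, 0 and 0.0143 FPKM in 90 and at 4.45, 2.72 and 8.36 in PANC-1. The 90 libraries held 4 COL11A1 fragments in all and the PANC-1 libraries 2255, with a spread of 2.89 FPKM (SD, n = 3) around a PANC-1 mean of 5.17 (log2 difference 2.51, SE 0.376, adjusted p = 5.90e-03).

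COL1A1, the main chain of type I collagen, was 7.92-fold higher in PANC-1. It was at 1.20, 1.38 and 1.68 FPKM in NC, siALDOA 1 and siALDOA 2 of 90 and at 9.96, 13.7 and 9.96 in those of PANC-1 (log2 difference 2.33, SE 0.194, adjusted p = 9.64e-04). Its usual partner COL1A2, which contributes 1 of the 3 chains of the common type I trimer, had 5 fragments over the 90 libraries and 0 over the PANC-1 libraries. A count of 0 allows up to 0.00906 FPKM of COL1A2 in PANC-1, taking 3 fragments over the 3 libraries as the limit, which covers counting error only. COL1A1 lies on chromosome 17 from 50183289 to 50201632 and COL1A2 on chromosome 7 from 94394561 to 94431232 (GRCh38).

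COL27A1, a fibrillar chain of cartilage and other matrices, went the other way. It was at 1.93, 2.52 and 1.76 FPKM in 90 and at 0.459, 0.539 and 0.574 in PANC-1, a log2 difference of -1.0 (SE 0.175, adjusted p = 9.55e-03). The call was lost without NC of 90 (adjusted p = 0.0632), NC of PANC-1 (0.0832) or siALDOA 2 of PANC-1 (0.0549). The other fibrillar genes stayed under 1 FPKM. COL5A1, the usual partner of COL5A2, was at 0.0669 to 0.112 FPKM in 90 and 0.405 to 0.553 in PANC-1, so that COL5A2 exceeded COL5A1 by 41.3, 31.6 and 64.2-fold in the PANC-1 libraries. COL3A1, the type III chain of distensible tissues, lies next to COL5A2 on chromosome 2, tail to tail at a distance of 19149 bases, and had 37, 43 and 29 PANC-1 fragments and 0 in each 90 library. That makes COL3A1 at least 33.4-fold higher in PANC-1, with the 3-fragment limit taken over the 90 libraries. COL2A1, the cartilage type II chain, had 4 fragments in each 90 library and 25, 17 and 12 in PANC-1, and COL24A1 had 0 in 90 and 3 to 4 per library in PANC-1.

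The type IV genes come as 3 head-to-head pairs with neighbouring starts, so that neighbours can be read together. COL4A5 and COL4A6 on the X chromosome encode chains of the alpha 5 and alpha 6 network of epithelial and smooth muscle basement membranes, COL4A3 and COL4A4 those of the kidney network, and COL4A1 and COL4A2 the nearly ubiquitous type IV trimer. RefSeq promoter windows (GRCh38.p14, 250 bases before to 50 after the start, 5′ to 3′ on the gene's strand) are shown for these pairs because both members of a pair share them, and capitals mark the bases that also belong to the window of the partner, 121 for COL4A5 and COL4A6, 226 for COL4A2 with COL4A1 and 82 for COL4A3 with COL4A4. The windows are chrX:108439588-108439887 (plus) for COL4A5, chrX:108439409-108439708 (minus) for COL4A6, chr13:110307034-110307333 (plus) for COL4A2 and chr2:227164374-227164673 (plus) for COL4A3.
COL4A5: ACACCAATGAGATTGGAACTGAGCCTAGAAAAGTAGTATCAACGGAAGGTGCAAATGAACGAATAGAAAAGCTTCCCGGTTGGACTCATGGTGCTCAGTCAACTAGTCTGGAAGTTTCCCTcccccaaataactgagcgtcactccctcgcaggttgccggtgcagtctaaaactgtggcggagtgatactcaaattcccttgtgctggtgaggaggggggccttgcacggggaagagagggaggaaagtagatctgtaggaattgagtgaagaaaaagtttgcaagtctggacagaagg
COL4A6: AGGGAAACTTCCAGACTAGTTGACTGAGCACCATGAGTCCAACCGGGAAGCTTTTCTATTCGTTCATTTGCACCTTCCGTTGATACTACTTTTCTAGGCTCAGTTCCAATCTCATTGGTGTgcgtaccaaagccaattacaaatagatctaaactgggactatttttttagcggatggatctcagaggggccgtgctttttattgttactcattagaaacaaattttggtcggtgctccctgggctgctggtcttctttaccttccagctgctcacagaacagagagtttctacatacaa
COL4A2: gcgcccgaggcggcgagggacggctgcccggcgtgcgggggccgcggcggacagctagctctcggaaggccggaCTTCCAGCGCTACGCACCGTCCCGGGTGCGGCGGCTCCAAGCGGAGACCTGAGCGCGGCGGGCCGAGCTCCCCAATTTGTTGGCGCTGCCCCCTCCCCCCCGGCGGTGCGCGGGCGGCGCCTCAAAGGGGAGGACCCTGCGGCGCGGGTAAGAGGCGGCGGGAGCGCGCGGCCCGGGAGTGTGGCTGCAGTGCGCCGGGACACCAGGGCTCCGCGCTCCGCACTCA
COL4A3: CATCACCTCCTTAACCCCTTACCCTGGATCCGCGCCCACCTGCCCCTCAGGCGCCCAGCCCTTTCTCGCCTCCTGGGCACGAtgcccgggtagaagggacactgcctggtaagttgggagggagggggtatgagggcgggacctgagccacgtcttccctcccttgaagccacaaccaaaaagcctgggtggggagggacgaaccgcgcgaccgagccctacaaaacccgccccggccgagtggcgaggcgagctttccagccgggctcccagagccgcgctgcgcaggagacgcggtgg

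The windows differ in base composition, with 49.3% and 43.7% GC for COL4A5 and COL4A6, 77.7% for COL4A2 and 67.7% for COL4A3. The letters GGGCGG, searched on both strands, occur 0 times in the windows of COL4A5 and COL4A6, 1 time in that of COL4A2 and 2 times in that of COL4A3. RefSeq windows were matched for 31 of the 43 collagen genes, of which 58.1% held GGGCGG, against 44.6% of all 27305 windows. CCAAT was in 29% of the collagen windows and 35.7% of all, and TATAAA in 12.9% and 12%, each on either strand. A match is a description of letters only.

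Both members of the X-linked pair were high in 90 and low in PANC-1. COL4A5 was at 5.52, 5.58 and 3.55 FPKM in NC, siALDOA 1 and siALDOA 2 of 90 and at 0.363, 0.468 and 0.521 in those of PANC-1 (log2 difference -2.0, SE 0.222, adjusted p = 2.23e-03). It entered the test only through 90, where it was high, and so had to differ. COL4A6 had too low a mean to be tested and was at 1.008, 1.25 and 1.10 FPKM in 90 and at 0.0287, 0.0407 and 0.0474 in PANC-1, or 426 against 16 fragments. The ratio of COL4A5 to COL4A6 was 5.48, 4.48 and 3.24 in 90 and 12.6, 11.5 and 11 in PANC-1, without overlap (exact permutation p = 0.1, two-sided, the smallest that 3 against 3 libraries allow). COL4A4 had 28, 31 and 31 fragments in 90 and 1, 6 and 2 in PANC-1, while its partner COL4A3 had 1 to 4 in any library. The ubiquitous pair was scarce in both lines: COL4A1 had 2 to 8 fragments per 90 library and 13 to 18 per PANC-1 library, and COL4A2 had 2 to 11 and 22 to 48. None of the 3 pairs reached 1 FPKM for both genes in PANC-1, and in 90 the X-linked pair did in all 3 libraries.

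Of the type VI genes, 2 of 5 were expressed at 1 FPKM or more. COL6A1, the alpha 1 chain of beaded filaments, was at 19.97, 14.97 and 19.5 FPKM in NC, siALDOA 1 and siALDOA 2 of 90 and at 5.68, 6.28 and 5.20 in those of PANC-1, 3.18-fold higher in 90 (log2 difference -1.50, SE 0.180, adjusted p = 2.84e-03). COL6A2, its neighbour 93046 bases further along chromosome 21 on the same strand, was at 6.53, 4.97 and 7.81 FPKM in 90 and at 4.23, 4.25 and 4.24 in PANC-1. The COL6A2 libraries did not overlap between the lines but the difference did not pass the test (log2 difference -0.49, SE 0.209, adjusted p = 0.135). The ratio of COL6A1 to COL6A2 was 3.06, 3.01 and 2.50 in 90 and 1.34, 1.48 and 1.22 in PANC-1 (exact permutation p = 0.1, two-sided, the smallest possible). COL6A3, the long partner chain of the usual type VI trimer, was at 0.0348 to 0.0873 FPKM in 90 and 0.105 to 0.131 in PANC-1, far below both partners in both lines. COL6A5 and COL6A6 had 5 and 2 fragments over all libraries. COL18A1 lies 468016 bases from COL6A1 on the same strand, and their differences between the lines were opposite in sign.

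COL7A1, the sole gene of anchoring fibril collagen, was 4.19-fold higher in 90. It was at 15.5, 16.1 and 19.2 FPKM in 90 and at 3.56, 4.66 and 3.88 in PANC-1, with no overlap (log2 difference -1.83, SE 0.162, adjusted p = 1.14e-03). It lies on chromosome 3 from 48564073 to 48595267 on the minus strand (GRCh38). Of the short chain network genes, COL8A1, a chain of vascular and corneal matrix, was at 0.801, 0.979 and 1.12 FPKM in 90 and had 2 fragments over the PANC-1 libraries against 169 over those of 90. Its ratio of PANC-1 to 90 was 0.0109 (exact 95% interval of the fragment counts 0.00131 to 0.0399, counting error only). The gene length recovered with these counts was 3091 bases, against 5705 for the longest GENCODE transcript of COL8A1, so the counts could be understated. COL8A2 was at 0.522 to 0.643 FPKM in 90 and 0.369 to 0.465 in PANC-1, and COL10A1 of hypertrophic cartilage had 4 fragments in all.

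The FACIT genes did not share a direction. COL9A3, a chain of the fibril-surface type IX, was at 9.12, 8.01 and 9.94 FPKM in NC, siALDOA 1 and siALDOA 2 of 90 and at 14.4, 15.8 and 13.98 in those of PANC-1 (log2 difference 0.65, SE 0.155, adjusted p = 0.0266). This call was lost after median ratio scaling (log2 difference 0.52, adjusted p = 0.202), after quantile normalization (0.63, 0.136) and with a replicate block (0.65, 0.0993). It was also lost without any single library other than siALDOA 2 of 90 (adjusted p from 0.0800 without siALDOA 1 of 90 to 0.151 without NC of 90). Without NC of 90 or NC of PANC-1 the line difference was the same, 0.68, that of the siALDOA libraries alone. COL9A2 was at 2.87, 2.46 and 2.77 FPKM in 90 and 1.32, 1.90 and 1.003 in PANC-1, below the 90 libraries without overlap but not past the test (log2 difference -0.63, SE 0.213, adjusted p = 0.0710). With the GC trend removed it passed (-0.54, adjusted p = 0.0249), and it also passed without siALDOA 1 of PANC-1 (-0.80, adjusted p = 0.0430). Of COL9A1, the remaining type IX chain, 1 fragment was found in the 6 libraries.

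COL12A1, a long FACIT chain of tendon and tumour stroma, had the widest SE of the 13 line differences. It was at 2.89, 6.20 and 1.27 FPKM in NC, siALDOA 1 and siALDOA 2 of 90 and at 0.117, 0.115 and 0.378 in those of PANC-1 (log2 difference -1.74, SE 0.462, adjusted p = 0.0374). COL12A1 entered the test only through 90, where it was high, and so had to differ. The lines did not overlap, but the call was lost without NC of 90 (adjusted p = 0.151), NC of PANC-1 (0.157), siALDOA 1 of PANC-1 (0.0845) or siALDOA 2 of PANC-1 (0.0905), and with a replicate block (0.0581). The losses without either NC rest on the same line difference (-1.70), that of the siALDOA libraries alone. COL16A1 was at 0.856, 0.882 and 1.15 FPKM in 90 and at 0.226, 0.213 and 0.153 in PANC-1. COL21A1 had 1 fragment in 90 and 11, 2 and 36 per PANC-1 library. COL22A1 had 10 to 20 fragments per 90 library and 12 to 39 in PANC-1, with overlap. COL14A1, COL19A1 and COL20A1 had 5 to 8 fragments over all libraries.

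Of the transmembrane collagens, COL13A1, a membrane-bound chain of cell contacts, was the only tested collagen gene whose libraries overlapped between the lines. It was at 3.05, 2.39 and 2.45 FPKM in 90 and 2.12, 2.51 and 2.62 in PANC-1 (log2 line difference -0.08, SE 0.182, adjusted p = 0.769). COL23A1 and COL25A1 had 3 fragments each. COL26A1, which has only short collagenous stretches, was at 0, 0.0338 and 0.0346 FPKM in 90 and at 1.81, 2.16 and 1.62 in PANC-1, or 4 against 348 fragments, and COL28A1 had 3 fragments in all.

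The collagen genes that did not enter the test numbered 30. When every gene above 0 in any library was tested, 9 of the 43 collagen genes were called higher and 8 lower in PANC-1, against 21.7% of all 27007 such genes, 11.2% higher and 10.5% lower. The genes added were COL26A1, COL5A1, COL3A1 and COL2A1 on the higher side and COL16A1, COL4A6, COL8A1 and COL4A4 on the lower side, while COL12A1 was no longer called (adjusted p = 0.0688). Of the 43 genes, 12 had at most 10 fragments over the 6 libraries together, and COL6A6, COL9A1 and COL25A1 were found in PANC-1 siALDOA 1 alone, the library with the most genes above 0. The part of that library's low values in these detections was not tested.

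**Figure D3:**
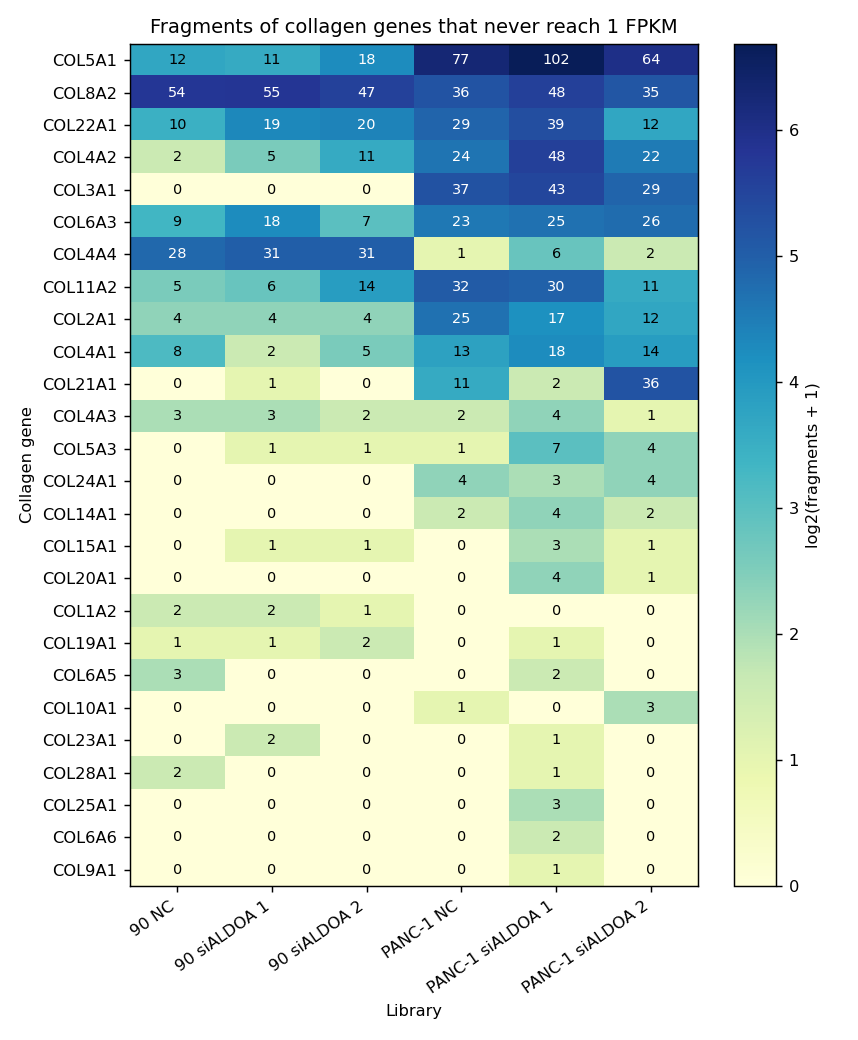
Fragments per library for the 26 collagen genes that never reached 1 FPKM, with the number in each cell and colour on a log2(fragments + 1) scale. COL3A1 has 29 to 43 fragments in the PANC-1 libraries and 0 in those of 90, COL4A4 has 28 to 31 in 90 and 1 to 6 in PANC-1, and COL25A1, COL6A6 and COL9A1 have fragments in PANC-1 siALDOA 1 alone.

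Genes that modify, fold, process, cross-link, bind or cut collagens were read from lists written for this purpose, and each list's count can be read against the 38.8% of all tested genes called between the lines, 20.4% higher and 18.4% lower, and their median of 0.13. CREB3L1, LOXL4, MRC2, FN1, SPARC and NID2 entered the test only through the line where they were high and so had to differ. Of 15 genes of prolyl and lysyl hydroxylation and glycosylation, 13 were tested, 2 were higher and 1 lower in PANC-1, and the median difference was 0.35. The 3-hydroxylase genes P3H2 (LEPREL1 in the table; 7.10 to 8.06 FPKM in 90 and 50.9 to 55.3 in PANC-1, log2 difference 2.65, SE 0.128) and P3H1 (LEPRE1; 10.9 to 14.4 and 33.7 to 43.9, log2 difference 1.51, SE 0.178) were higher in PANC-1. PPIB, the cyclophilin of the prolyl 3-hydroxylation complex of P3H1, was lower (log2 difference -1.02, SE 0.175). CRTAP, the scaffold of that P3H1 complex, was at 22.5 to 27.1 FPKM in 90 and 22.5 to 28.1 in PANC-1. Of 10 folding and secretion genes, 9 were tested, 1 was higher and 1 lower: CREB3L1, a transcription factor of collagen secretion (1.15, SE 0.167, admitted through PANC-1), and SEC24D, a coat protein of export vesicles (-1.60, SE 0.413). SERPINH1, the collagen chaperone HSP47, was at 114 to 164 FPKM in 90 and 73 to 107 in PANC-1 and did not pass (adjusted p = 0.0611).

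Of 8 propeptide processing genes 3 were tested, of which 2 were higher and 1 lower in PANC-1. BMP1, the procollagen C-proteinase, was at 17.9 to 24.7 FPKM in 90 and 2.54 to 3.79 in PANC-1 (log2 line difference -2.45, SE 0.213). Its enhancers PCOLCE (0.70, SE 0.192) and PCOLCE2 (0.92, SE 0.168) were higher in PANC-1, and the N-propeptidase gene ADAMTS2 reached at most 0.0949 FPKM. Of 6 cross-linking genes 4 were tested, and LOXL4 alone was called, a gene admitted through 90 (-1.54, SE 0.218), while LOXL2 was the highest at 46.2 to 66.2 FPKM in 90 and 50.5 to 62.8 in PANC-1. Of 11 collagen receptor genes 5 were tested, with MRC2, the endocytic receptor of cleaved collagen, higher in PANC-1, through which it was admitted (3.56, SE 0.158), and the adhesion receptor ADGRG1 (GPR56 in the table; -3.13, SE 0.176) and the kinase DDR1 (-2.35, SE 0.178) lower. DDR1 was at 84.9 to 112 FPKM in 90 and 16.2 to 21.5 in PANC-1.

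Of 10 collagen-degrading protease genes 4 were tested, 3 lower and 1 higher in PANC-1, with a median difference of -2.75. MMP1, interstitial collagenase, was at 53.9 to 82.2 FPKM in 90 and 1.65 to 2.41 in PANC-1 (-4.54, SE 0.235), and the membrane-bound MMP14 was at 105 to 142 and 5.88 to 8.72 (-4.04, SE 0.217). MMP15 was lower as well (-1.46, SE 0.227), and the gelatinase MMP2 was higher, at 20.5 to 25.6 FPKM in PANC-1 and 8.77 to 11.9 in 90 (1.10, SE 0.180). Of 9 fibril-associated genes 2 were tested, each through 1 line alone: FN1 (fibronectin) was lower (-3.06, SE 0.161) and SPARC higher in PANC-1 (1.57, SE 0.148). All 10 basement membrane partner genes were tested, of which 1 was higher in PANC-1 and 4 were lower, for a median of -0.76. NID1 (nidogen 1) was higher (1.44, SE 0.158), and NID2 (-2.15, SE 0.183, admitted through 90), AGRN (agrin; -1.59, SE 0.186) and LAMA5 (-1.14, SE 0.193) were lower.

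**Figure D4:**
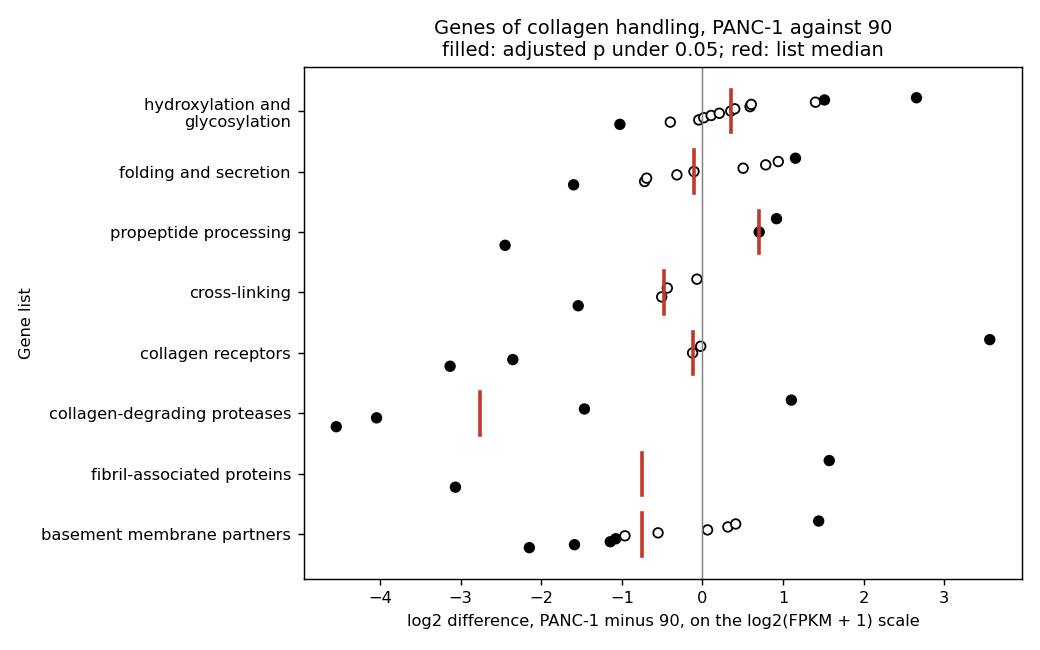
The log2 difference between PANC-1 and 90 on the log2(FPKM + 1) scale for each tested gene of 8 lists of collagen handling, filled where the adjusted p is under 0.05, with the list median as a red bar. The protease list has the lowest median, -2.75, and the propeptide processing list the highest, 0.70.

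siALDOA against NC asks whether collagen transcripts changed with the partial lowering of ALDOA RNA. None of the 13 tested collagen genes was called over both lines, and 0% of the 12592 genes tested were (limma, 0 genes; 0.341% at an unadjusted p under 0.05, among them 0 collagen genes). ALDOA itself, lower than NC in every siALDOA library, was among the genes not called. A missing call here therefore does not show that a gene was unchanged. The log2 changes of the 13 ran from -0.10 for COL6A1 (95% interval -0.59 to 0.39) to 0.21 for COL1A1 (-0.32 to 0.73), with a median of 0.01 against 0.01 for all genes. For COL18A1, the most abundant, the change was -0.02 (-0.49 to 0.45), and the widest interval was that of COL12A1 (-1.16 to 1.36). None was called within 90 (0% of all genes; 0.262% at an unadjusted p under 0.05) or within PANC-1 (0%; 0.167%), nor for the difference of the effects between the lines (0%; 0.191%). COL13A1 lay below NC in both siALDOA libraries of 90 (log2 changes -0.26 and -0.23) and above NC in both of PANC-1 (0.17 and 0.22), a pattern shared by 9.91% of all tested genes, with a difference of 0.44 (95% interval -0.76 to 1.64, adjusted p = 1).

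By unrounded values, all 4 siALDOA libraries lay on one side of their line's NC for 2 of the 13, against 9.21% of all tested genes. These were COL7A1, above NC in all 4, and COL1A1, above NC in 3 and equal to it in 3 digits in siALDOA 2 of PANC-1. Both siALDOA libraries lay on one side of NC for 6 of 13 in 90 (43.1% of all genes) and for 6 in PANC-1 (40%). The 6 in 90 include COL11A1, with changes of -0.02 and -0.001 on 2, 0 and 2 fragments in NC, siALDOA 1 and siALDOA 2. For COL7A1 the log2 changes were 0.05 and 0.29 in 90 and 0.31 and 0.10 in PANC-1, and over both lines 0.19 (SE 0.172, adjusted p = 1). For COL1A1 they were 0.11 and 0.28 in 90 and 0.43 and 0 in PANC-1, where siALDOA 2 and NC were both 9.96 FPKM (over both lines 0.21, SE 0.206, adjusted p = 1). Within PANC-1, 12 of the 13 changes, which share 1 NC library, were above 0 with a median of 0.12, against 48.1% of all tested genes and a median of -0.01. The smallest of the 12 were 0.004 for COL6A2 and 0.008 for COL6A1. In 90, 5 of 13 were above 0 with a median of -0.01, against 44.7% and -0.03. Those not above 0 include COL11A1 (-0.01) and COL5A2 (-0.001), which rest on 4 and 22 fragments over the 90 libraries.

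The siALDOA libraries of a line lay far apart for some collagen genes, among them genes of low GC content. COL12A1, with 46.3% GC in its longest GENCODE transcript, changed from NC by 0.89 in siALDOA 1 and by -0.78 in siALDOA 2 of 90. COL11A1, with 47.3% GC, changed by -0.55 in siALDOA 1 and by 0.78 in siALDOA 2 of PANC-1. COL5A2, with 47.9%, changed by -0.06 and 0.49 there. COL18A1, with 67.2% GC, was at -0.18 and 0.23 in siALDOA 1 and 2 of 90 and at 0.11 and -0.24 in those of PANC-1. Genes of high GC content could also lie far apart. COL6A2, with 66.4%, changed by -0.33 and 0.23 in 90, and COL9A2, with 64.8%, by 0.33 and -0.21 in PANC-1. In 90, where COL11A1 and COL5A2 were close to silent, their changes stayed between -0.02 and 0.01.

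Across the 13 genes, which share libraries and are not replicates, the Spearman correlation of change with GC content was -0.51 and 0.54 in siALDOA 1 and 2 of 90 and 0.46 and -0.85 in those of PANC-1. The 13 include genes low in a line, such as COL11A1 and COL5A2 in 90, whose changes there log2(FPKM + 1) holds near 0. Across 11906 tested genes with a GC value it was -0.73, 0.22, 0.58 and -0.65 in the same order. With the GC trend removed from each library, the 13 changes ran from -0.14 to 0.73 and from -0.52 to 0.24 in the 90 libraries, and from -0.60 to 0.30 and from -0.02 to 0.65 in the PANC-1 libraries, and 0 collagen genes were called for siALDOA. Of the lists of collagen handling, no gene was called for siALDOA over both lines, and 0 were at an unadjusted p under 0.05.

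**Figure D5:**
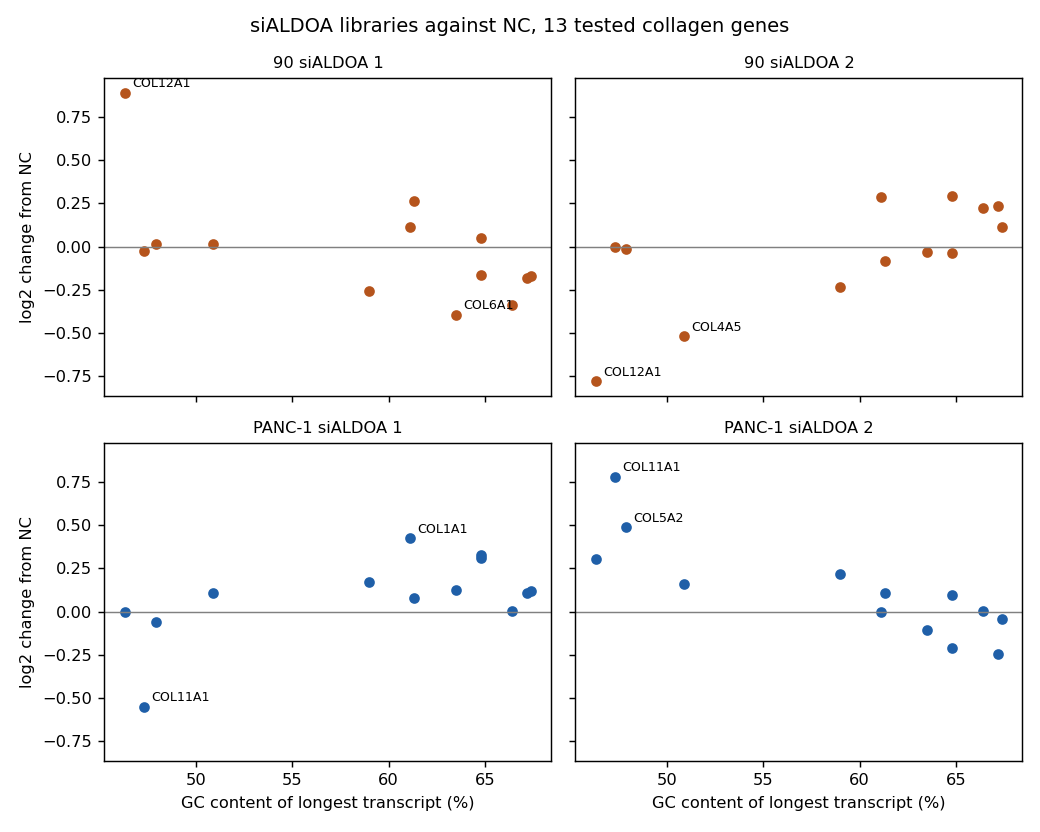
The log2 change from NC on the log2(FPKM + 1) scale against the GC content (%) of the longest transcript for the 13 tested collagen genes, a panel per siALDOA library. COL12A1 is at 0.89 and -0.78 in the 90 panels, and COL11A1 at -0.55 and 0.78 in the PANC-1 panels.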

How the data were processed

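Poly(A)-selected RNA of 6 libraries was sequenced. The authors deposited FPKM values per gene and library. HISAT2, featureCounts and the build hg38 are named per the submitters' processing notes; the sources used here give no versions, settings, annotation, strand use or gene lengths, so reads of overlapping antisense genes cannot be set apart. Of 41769 rows 1 had no gene name.

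Fragment totals per library came from short RNAs of known RefSeq length. Whole fragments per gene were then solved for as the smallest gene length that makes all 6 values whole (tolerance at most 0.05 fragments), which worked for 99.97% of genes above 0 and added up to 99.31% to 99.41% of the totals. Smallest solutions could be understated for genes with few fragments. The length found lay within 10% of the longest GENCODE transcript for 31 of the 43 collagen genes. The lowest ratios were 0.397 for COL9A1, 0.515 for COL20A1 and 0.542 for COL8A1, whose counts could be understated.

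Genes averaging 1 FPKM or more were tested as log2(FPKM + 1) with limma 3.58.1 (R 4.3.3), trend on. PANC-1 against 90 and siALDOA over both lines came from a fit with terms for line and siALDOA (3 residual degrees of freedom), and effects within a line and their difference from a fit of 4 group means (2). The lone NC of a line is there assumed to vary like the siALDOA libraries. The script was tested on simulated data. Intervals are 95%.

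Collagen genes averaging 1 FPKM or more, or reaching it in a library, are named with their values, the others by range or count, and up to 4 called genes per list by size of the line difference. The collagen genes, lists and alternatives were chosen with earlier results of these data known. Genes named in the lists beyond that rule were chosen after their values were seen. Alternatives were other pseudocounts, filters, scalings, a GC correction (GC known for 94.6% of tested genes), left-out libraries and a replicate block; limma-voom on recovered fragments and a crossed pairing were added after seeing the data.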

Additional observations from a re-analysis of the deposited data

Results flagged for a closer look

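COL16A1 and COL8A2 were too low for the filtered test. In FPKM each moved one way from NC in both siALDOA libraries of 90 and the other way in both of PANC-1. This pattern was seen in 13.4% of all mRNA genes with a mean of 0.1 to 1 FPKM. It rests on the scaling for depth: fragments of COL16A1 were equal in NC and siALDOA 1 of PANC-1, and those of COL8A2 rose by a little in siALDOA 1 of 90. COL16A1, a fibril-surface chain, had 85, 96 and 122 fragments in NC, siALDOA 1 and siALDOA 2 of 90 and 26, 26 and 16 in those of PANC-1. Its log2 change was 0.12 in 90 and -0.05 in PANC-1, a difference of -0.17 (SE 0.223, limma adjusted p = 1 with no filter on low values). COL8A2, a short network chain, had 54, 55 and 47 fragments in 90 and 36, 48 and 35 in PANC-1. Its log2 change was -0.08 in 90 and 0.06 in PANC-1, a difference of 0.14 (SE 0.175, adjusted p = 1 in the same fit).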

How the results depend on the processing

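Of the 10 collagen genes called between the lines, 7 kept their call and direction under all 19 alternatives: COL18A1 (log2 difference 3.03 to 3.34), COL5A2 (4.15 to 8.41), COL11A1 (2.12 to 8.71), COL1A1 (2.18 to 2.98), COL6A1 (-1.69 to -1.39), COL7A1 (-2.06 to -1.73) and COL4A5 (-3.41 to -1.87). Of these, COL5A2, COL11A1 and COL4A5 entered the test only through the line where they were high and so had to differ. COL9A3, COL12A1 and COL27A1 lost their calls under 10, 7 and 5 alternatives. With no filter on low values 9 were called higher and 8 lower, with siALDOA libraries alone 4 and 3, and without siALDOA 1 of both lines 4 and 6. Leaving out 1 library gave 4 to 5 higher and 3 to 5 lower, the 3 being without NC of 90, NC of PANC-1 or siALDOA 2 of PANC-1. COL13A1 turned to 0.06 with the GC trend removed, with and without the replicate block, and with siALDOA libraries alone, none past the threshold. It was also 0.06, not past the threshold, without NC of 90 or of PANC-1. With 1 library left out it ranged from -0.14 to 0.06. Without either NC, the other NC fixes the siALDOA term, so the line difference is that of the siALDOA libraries alone. These 3 of the 19 alternatives thus give the same line difference for each gene. The cause of the turn to 0.06 was not tested. Over all genes the count called fell from 4882 to 2424 without NC of 90 and to 2422 without NC of PANC-1. These fits share their line differences with that of the siALDOA libraries alone (2423 called). Median ratio scaling moved the median line difference from 0.13 to 0.02. For siALDOA against NC, 0 collagen genes were called in each fit made. The replicate blocks and the siALDOA libraries alone were run for PANC-1 against 90 only. No fit was possible for the effect within a line and the difference without that line's NC, or for both of these without siALDOA 1 of both lines, which leaves 1 library per group. Over all genes, no filter gave 38 calls within 90 and 49 within PANC-1, and leaving out siALDOA 1 of both lines gave 17 over both lines, against 0 each.

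The numbers 1 and 2 pair the siALDOA libraries in name only. The difference of siALDOA 1 and 2 correlated at -0.86 between the lines over 12592 genes. With a replicate block 4 collagen genes were called higher and 4 lower, with the block and the GC trend removed 5 and 5, and with the crossed pairing 5 and 6, with 7594 calls over all genes. Depth limits the 12 collagen genes with at most 10 fragments.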

Other observations

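COL11A2, a fibrillar chain in the major histocompatibility region of chromosome 6, had 25 fragments over the 90 libraries and 73 over those of PANC-1, with FPKM of 0.0111 to 0.0611. The length behind its FPKM was 25393 bases, 3.95 times its longest GENCODE transcript of 6425 bases, while that of COL11A1 equalled its longest transcript of 7327 bases. The source of this length was not tested.

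COL5A3, which encodes a further type V chain, had 2 fragments in 90 and 12 in PANC-1, 7 of them in siALDOA 1.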
